A study of Xenopus laevis with 6 samples.

Results

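The regions described here are stretches of open chromatin in frog ectoderm that were listed late in gastrulation, close to a stretch that was already listed when gastrulation began. They were chosen by position alone: a region of the stage 12 list on the 18 assembled chromosomes was taken if it overlapped no region of the stage 10 list and if 1 to 5000 bp lay between its edge and the edge of the nearest stage 10 region. There were 8339 such regions, called late neighbours below, among the 55045 stage 12 regions on chromosomes and the 61049 stage 12 regions in all. Because the positions of both lists chose the members, their absence at stage 10 and their closeness to a stage 10 region are the rule and not a result.

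The material was ectodermal explants (animal caps) of Xenopus laevis, taken from blastulae at stage 9 and kept in culture to stage 12, the late gastrula, or only to stage 10, the early gastrula. Each stage had 3 ATAC-seq libraries, and each library was made from 2 explants, with 100-nucleotide paired-end reads. No treatment or genotype differed between the stages. The explants of both stages share the cut and the culture that followed, and the shorter culture is the earlier stage. Each group of 3 libraries is represented by 1 list made by the authors, so no value below has a spread between replicates, and no test between the stages was possible.

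ATAC-seq uses the transposase Tn5, which inserts adapters where DNA is free of nucleosomes, and open stretches of this kind include promoters and enhancers. Enhancers often lie in groups around the gene they act on. The animal cap is the pluripotent roof of the blastula, and in the embryo its cells become committed to epidermal or neural ectoderm during gastrulation. The fate of the cells in these cultured explants was not examined. The lists name no genes, and the regions were not assigned to genes here because the gene table at hand is of a different genome build from the build named in the submitters' processing notes (xenLae2). For the same reason no sequence is shown, and the labelled tissue could not be checked against marker genes.

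Of the stage 12 regions on chromosomes, 25087 (45.6%) overlapped no stage 10 region. The late neighbours made up 33.2% of these stage-12-only regions (95% Wilson interval 32.7% to 33.8%). Intervals here cover counting error only. The other 16748 stage-12-only regions lay farther than 5000 bp from any stage 10 region, and 29958 stage 12 regions overlapped one. These are the 2 sets the late neighbours are compared with. The 2 lists differ in depth. A fold enrichment and a −log10 p were deposited for each summit, and together they gave the read pileup at the summit and the local background. The most common background, the floor of a list, was 4.70 at stage 12 and 2.204 at stage 10. Pileups and backgrounds are given below as multiples of the floor of their own list. The lists hold no read totals, so depth per library is unknown.

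Late neighbours were most frequent close to the early regions, as regions of a single list are to each other. Their median distance to the nearest stage 10 region was 1116 bp (95% order-statistic interval 1064 to 1162 bp), with an interquartile range of 340 to 2668 bp. Under the same limit of 5000 bp, consecutive regions of the stage 12 list were a median of 694.5 bp apart. Those of the stage 10 list were 491 bp apart, and both medians were lower. They count every gap, not only the nearest, and the stage 12 gaps include those beside late neighbours. The measures are thus not alike. With an overlap of 50% of both regions required before a region counts as shared, the median distance was 396 bp over 12065 regions. That setting also takes in regions with a smaller overlap and counts them as no distance away. The setting itself thus lowers the median, which cannot be set against the 1116 bp. The first 250 bp held 1617 of the 8339 late neighbours (19.4%) and the next 250 bp held 1073. The number per step of 250 bp was 443 just past 1000 bp, and beyond 3000 bp the lowest step held 186. The distribution fell steeply within the first kilobase and was nearly flat beyond the third.

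Very short distances were rare. Only 20 late neighbours lay within 80 bp of a stage 10 region, and the closest was 13 bp away. From 81 to 160 bp there were 1044, or 12.5% of all, and the fullest 20 bp step, from 100 to 120 bp, held 362. Regions of a single list showed a like edge: consecutive regions were at least 94 bp apart in the stage 12 list and at least 95 bp apart in the stage 10 list. Among consecutive regions up to 5000 bp apart, 21.7% of the gaps in the stage 12 list and 26.6% of those in the stage 10 list were of 81 to 160 bp. The lists thus keep a minimum spacing between regions, and its part in the pile of late neighbours just past 80 bp was not tested. From the best summit of the late neighbour to the best summit of the early region the median distance was 1580 bp, and the shortest was 206 bp.

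**Figure D1:**
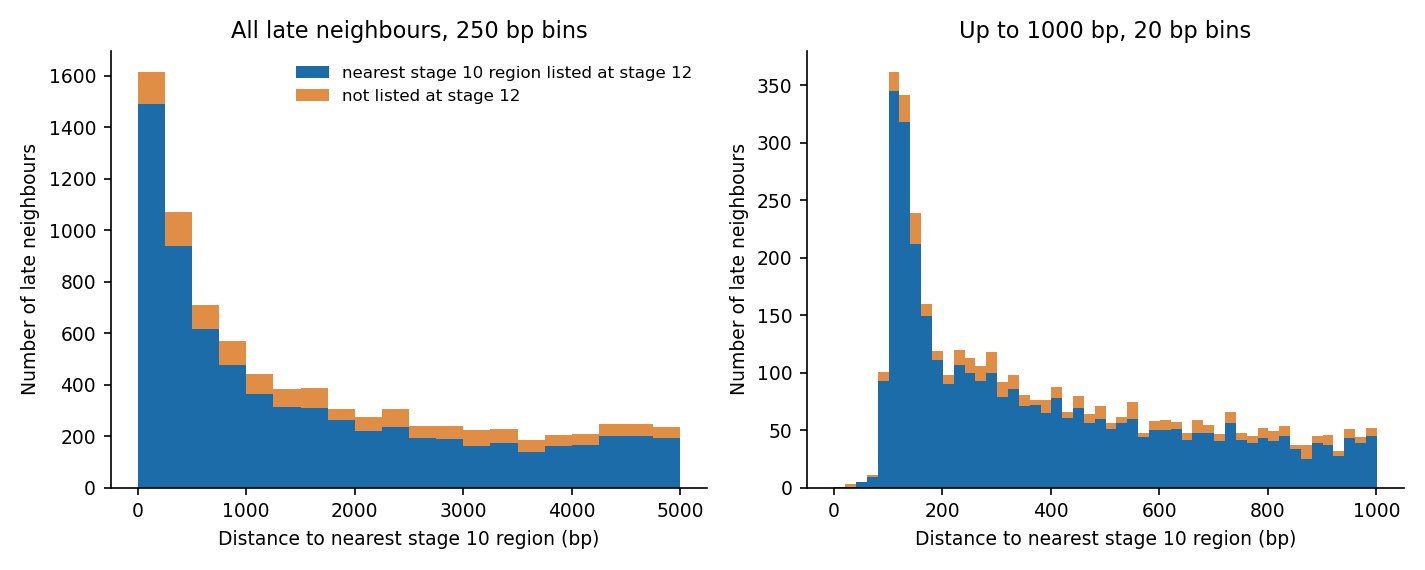
Number of late neighbours by distance in bp to the nearest stage 10 region, over the whole range in steps of 250 bp (left) and up to 1000 bp in steps of 20 bp (right). Blue marks members whose nearest stage 10 region is still listed at stage 12 and orange those whose nearest one is not; counts are highest in the first 250 bp (1617), nearly empty below 80 bp and highest between 100 and 120 bp (362).

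Most of the early regions beside them were still listed at stage 12. The nearest stage 10 region overlapped a stage 12 region for 7012 of 8339 late neighbours, a share of 84.1% (Wilson interval 83.3% to 84.9%), and was no longer listed for 1327 (15.9%). For the other stage-12-only regions, all farther than 5000 bp away, the share was 82.0% (81.4% to 82.6%), and over all 40211 early regions on chromosomes it was 77.7%. The farther stage-12-only regions thus also stood above all early regions, and late neighbours were only slightly above them. With an overlap of 50% of both regions required in place of 1 bp, the share was 53.2% of 12065 regions. That setting also took in regions that overlap their early region by less than 50%. An early region met only by such an overlap then counts as not listed. The 53.2% is thus partly fixed by the setting and cannot be set against the shares above. Late neighbours with the same early region share its outcome, and the Wilson intervals per late neighbour leave this out. Counted once each, the 6742 early regions nearest to a late neighbour were listed at stage 12 in 83.8% of cases (82.9% to 84.65%). Among the 33469 early regions that were nearest to none the share was 76.5%. The share listed again was 46.8% among the weakest early regions and 98.4% among the strongest, so shares were also read within 10 classes of equal size by −log10 p at stage 10. In the weakest class, 60.5% of the 660 early regions with a late neighbour were listed at stage 12, against 44.1% of the 3362 without one. In the strongest class these shares were 99.1% and 98.2%. The share was higher with a late neighbour in 10 of 10 classes. The early regions were chosen by lying beside a late neighbour, and no test of this difference was possible.

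The share was lower at greater distances. It was 92.1% (90.7% to 93.4%) for late neighbours within 250 bp, 87.7% from there to 500 bp, 85.6% from 500 to 1000 bp and 82.05% from 1000 to 2000 bp. Between 2000 and 5000 bp it was 78.6% (77.0% to 80.01%), an interval that holds the 77.7% of all stage 10 regions. By steps of 1 kb the lowest share was 75.3% (72.2% to 78.1%), between 3000 and 4000 bp, and between 4000 and 5000 bp it was 81.02%. Stage-12-only regions outside the 5000 bp limit did not continue the fall: their nearest stage 10 region was listed at stage 12 in 83.6% of cases from 5000 to 10000 bp and in 77.9% beyond 100 kb. The early regions were also strongest in the first bin, with a median −log10 p at stage 10 of 40.7 within 250 bp and of 36.9 to 38.1 in the 4 farther bins. Their median pileup was 31.8 times the stage 10 floor in the first bin, 30.9 times in the next 3 and 29.9 times in the last. The part of this strength in the order of the shares was not tested.

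**Figure D2:**
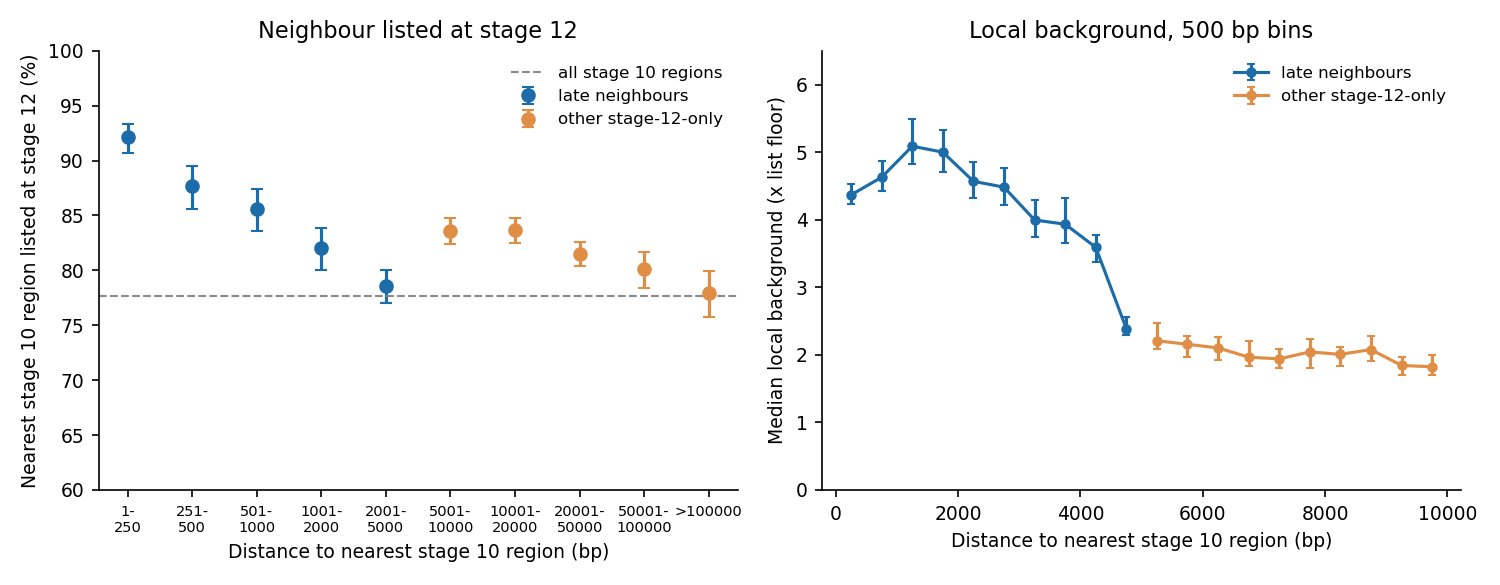
Left, the share in percent of stage-12-only regions whose nearest stage 10 region is still listed at stage 12, by distance in bp, with 95% Wilson intervals; blue points are late neighbours, orange points other stage-12-only regions, and the dashed line all stage 10 regions (77.7%). Right, the median local background in multiples of the list floor with its 95% interval in steps of 500 bp; the share falls from 92.1% within 250 bp to 78.6% between 2000 and 5000 bp, and the background is 3.59 between 4000 and 4500 bp and 2.39 between 4500 and 5000 bp.

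Early regions of every strength had late neighbours. The share with at least 1 was 16.8% of all stage 10 regions on chromosomes and ran between 14.6% and 18.3% over the same 10 classes of the list by −log10 p, with no steady rise or fall. Most had a single one: 5458 early regions were nearest to 1 late neighbour, 1016 to 2, 230 to 3, 31 to 4 and 7 to 5. Of the 1284 early regions with 2 or more, 455 (35.4%) had late neighbours on both sides. Conversely, 1360 late neighbours (16.3%) had a stage 10 region within 5000 bp on both sides. The share with a listed nearest region was 83.5% for these and 84.2% for those with an early region on 1 side, and the intervals of these shares overlap.

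For 7761 late neighbours (93.1%) another stage 12 region lay within 5000 bp, which the rule largely fixes, since most of the early regions beside them were listed again. The nearest other stage 12 region was one that overlapped stage 10 for 6022 (72.2%), another late neighbour for 1979 (23.7%) and a different stage-12-only region for 338 (4.05%). The 3 early regions with the most late neighbours and, among those tied, the highest −log10 p had 5 each. The first was chr3L:128892836-128893103, a region of 268 bp that was listed at stage 12 as chr3L:128892778-128893111. Its late neighbours lay 3169 and 1688 bp to the left and 479, 2169 and 3138 bp to the right, with widths of 91, 226, 163, 520 and 116 bp and pileups of 21.1, 17.9, 31.5, 19.6 and 23.2 times the floor. The early region itself reached 55.1 times the floor at stage 12, above all 5.

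Around the second, chr5S:50251411-50251838, 1 late neighbour lay 3393 bp to the left. The other 4 followed each other to the right at 784, 1106, 1430 and 1888 bp, the nearest of these 4 being chr5S:50252623-50252810 and the farthest chr5S:50253727-50254090. The fold enrichments of these 4 were 5.84, 4.73, 3.88 and 3.59, each lower than the one before. The late neighbour to the left, the farthest from the early region, had 5.12, which is above 4.73. Fold enrichment thus did not fall steadily with distance over all 5. The early region had 9.67 at stage 12. Around the third, chr1L:107560613-107560897, late neighbours lay 1240 and 96 bp to the left and 806, 1035 and 1633 bp to the right. That early region had a pileup of 64.2 times the floor at stage 12, against 24.04 to 41.3 times for its 5 late neighbours.

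Late neighbours were narrow and simple. Their median width was 319 bp (interquartile range 211.5 to 487 bp), against 494 bp for the other stage-12-only regions and 719 bp for stage 12 regions that overlapped stage 10. On each of the 18 chromosomes their median width was below that of both other sets. A single summit was listed for 3491 (41.9%, Wilson interval 40.8% to 42.9%), 2 summits for 36.2%, 3 for 14.5% and 4 or more for 7.47%. The share with 1 summit was 24.4% among the other stage-12-only regions and 12.8% among those overlapping stage 10. Within classes of width the late neighbours and the other stage-12-only regions had close shares with 1 summit. Among regions of up to 250 bp, 81.8% of late neighbours and 77.4% of the other stage-12-only regions had 1 summit, and between 250 and 500 bp the shares were 27.3% and 27.4%. Regions that overlapped stage 10 had fewer single summits at a like width above 250 bp, with 22.2% between 250 and 500 bp and 1.92% between 500 and 1000 bp, where late neighbours had 7.68%. In the upper 50% of the stage 12 list by −log10 p only 15.6% of the late neighbours had 1 summit. The rule can favour narrow regions, since a wide region near an early one is more likely to overlap it and be left out. The part of the rule in these widths and summits was not tested.

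The closest were the narrowest. Median width was 256 bp within 250 bp of the early region, 280 bp from there to 500 bp, 292 bp from 500 to 1000 bp, 329 bp from 1000 to 2000 bp and 382 bp from 2000 to 5000 bp. The share with 1 summit was lower in each following bin, with 58.1% in the first and 29.9% in the last. A wide region is most likely to overlap the early region, and be left out, when it lies close. The rule thus bears on both trends with distance, and its part was not tested. Past the limit, regions 5000 to 10000 bp away had a median width of 475 bp and 25.9% of them a single summit. Within the members the best summit lay on the side of the midpoint that faced the early region in 52.6% of cases (51.5% to 53.7%).

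The authors' values placed late neighbours nearly level with the other stage-12-only regions by −log10 p and top score, and apart by fold enrichment. The score is known by column order only, and it is not read as strength here. The pileup and background computed from −log10 p and fold enrichment also set them apart. The median −log10 p was 53.5 for late neighbours and 54.04 for the other stage-12-only regions, against 157 for regions overlapping stage 10. The top score of 1000 was held by 54.5%, 55.8% and 90.2% of these sets. Median fold enrichment was 6.12 for late neighbours, 9.47 for the other stage-12-only regions and 12.7 for those overlapping stage 10. The median pileup was 27.2 times the floor for late neighbours, 18.1 times for the other stage-12-only regions and 46.8 times for those overlapping stage 10. The median local background was 4.31, 1.67 and 3.56 times the floor in the same order of sets. Late neighbours thus had more reads than the other stage-12-only regions, over a background that was higher still.

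**Figure D3:**
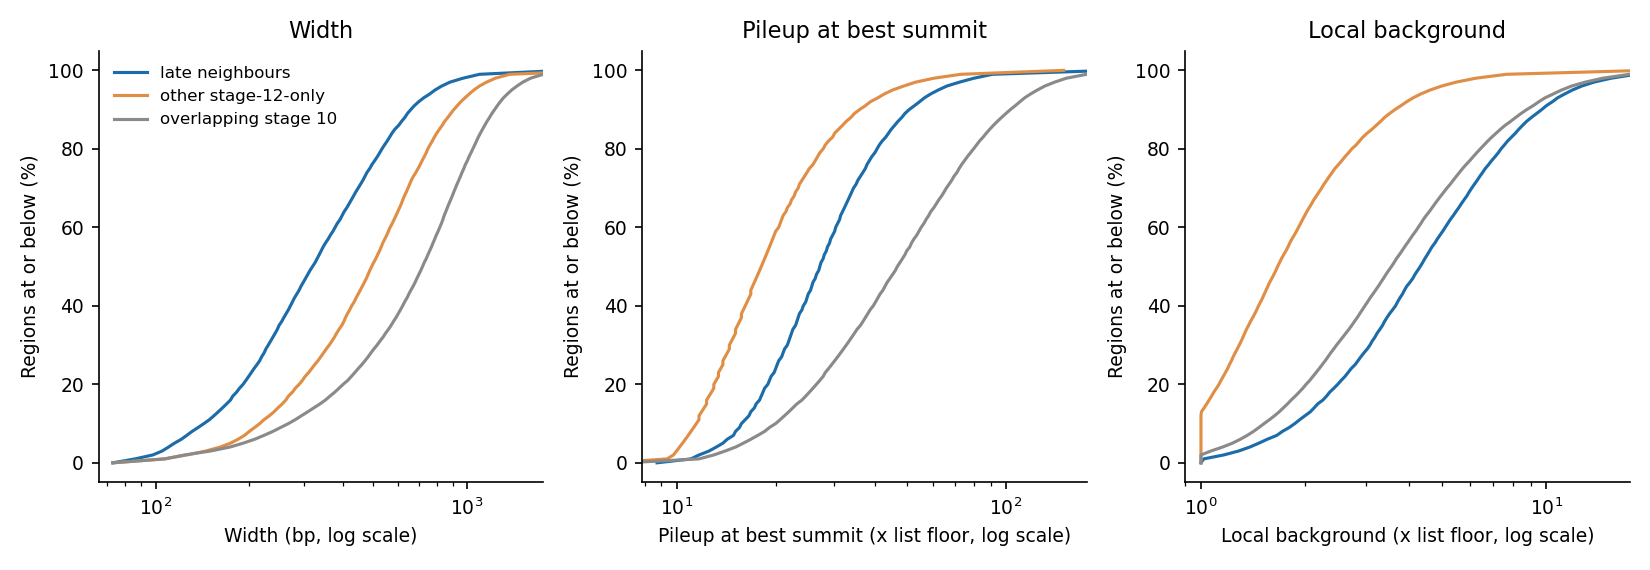
Cumulative share in percent of stage 12 regions at or below a given width in bp, pileup at the best summit and local background, the last 2 in multiples of the list floor, all on log axes. Late neighbours (blue) are the narrowest, with a median of 319 bp; their median pileup of 27.2 lies between other stage-12-only regions (orange, 18.1) and regions overlapping stage 10 (grey, 46.8), and their median background of 4.31 is the highest of the 3 sets.

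That order of pileups turned round once the background was held alike, while the order of widths did not. Over backgrounds of 2 to 3 times the floor, 1385 late neighbours had a median pileup of 19.6 times the floor, against 22.8 times for 3439 other stage-12-only regions. Over 3 to 5 times the floor the medians were 25.1 and 29.8 times, and over 5 to 10 times they were 34.2 and 43.8 times. Median −log10 p was lower in late neighbours in each of these classes too, for example 54.6 against 74.3 over 3 to 5 times the floor. Below 2 times the floor the median pileup of both sets was 15.1 times. Median widths in the same 4 classes, from low to high background, were 371, 364, 314 and 294 bp for late neighbours and 496, 502, 487 and 447.5 bp for the other stage-12-only regions. A region over a high background needs a higher pileup to reach a given −log10 p.

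The background itself changed abruptly near the limit of the rule. In steps of 500 bp its median was between 3.59 and 5.09 times the floor from 1 to 4500 bp, 2.39 times from 4500 to 5000 bp and 2.21 times from 5000 to 5500 bp. From there to 10000 bp it stayed between 1.82 and 2.16 times. Median fold enrichment was 6.88 from 4000 to 4500 bp, 8.04 from 4500 to 5000 bp and 8.57 from 5000 to 5500 bp. The window over which the local background was taken is not given in the sources used here, and its part in this step was not tested. Differences in fold, pileup and background between late neighbours and farther regions move with this step.

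Compared with the early region beside it, a late neighbour was usually the lesser of the pair. For the 7012 whose neighbour was listed again, both regions were in the stage 12 list. The early region of such a pair is in both lists and the late neighbour in only 1, so the choice of pairs bears on this order. The median pileup of all regions overlapping stage 10 was 46.8 times the floor. It was 27.2 times for late neighbours and 18.1 times for the other stage-12-only regions. The part of this choice in the ratios was not tested. The pileup of the late neighbour was a median of 0.564 times that of its partner (10th to 90th percentile 0.289 to 1.13) and was above it in 14.5% of pairs. Its width was a median of 0.542 times that of the partner, and it was the wider in 23.9%. The local backgrounds of the 2 regions of a pair were nearly equal, with a median ratio of 0.997 and an interquartile range of 0.952 to 1.03. The ratio of pileups changed little with distance. Its median was 0.527 within 250 bp and 0.616 between 1000 and 2000 bp, the lowest and the highest of the 5 bins.

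**Figure D4:**
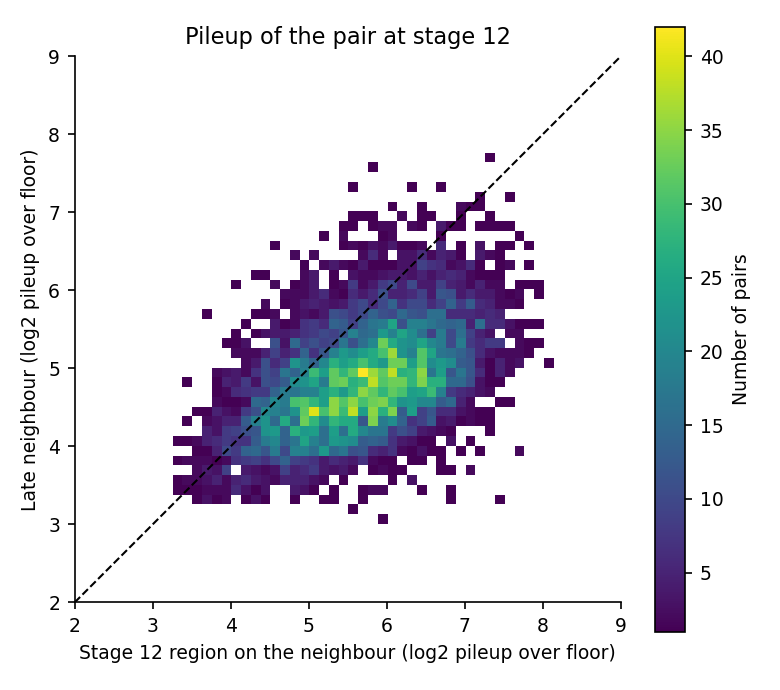
Each of the 7012 pairs at stage 12, with the log2 pileup over the floor of the stage 12 region on the early neighbour (horizontal) and of the late neighbour (vertical); colour gives the number of pairs per cell and the dashed line marks equal pileups. Most pairs lie below the line, and in 14.5% the late neighbour is the higher.

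The outer bounds of the early regions also differed between the lists. The edge facing the late neighbour had moved outwards by a median of 8 bp at stage 12 and the opposite edge by 9 bp, but the 90th percentiles were 177 and 259 bp. The late neighbour itself bounds how far the facing edge can move. The floor of the stage 12 list was 2.13 times that of stage 10, and the part of depth in these shifts was not tested. The 7012 pairs come from 5649 early regions, so some early regions count more than once. The facing edge moved outwards in 63.6% of pairs and the opposite edge in 64.05%. The facing edge moved the further in 47.3% of pairs and the opposite edge in 50.9%. At stage 12 the gap between the 2 regions had a median of 953 bp, and in 1253 pairs (17.9%) it was no more than 160 bp. Few of the listed early regions overlapped 2 or more stage 12 regions, at 1.95% of those with a late neighbour and 1.53% of those without.

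Early regions with late neighbours differed slightly more in pileup between the stages. Relative to the floor of each list, the pileup of listed early regions was higher at stage 12 by a median of 0.59 on the log2 scale for the 5649 with a late neighbour (interquartile range 0.19 to 0.95) and by 0.50 for the 25588 without (0.06 to 0.84). The interquartile ranges overlap almost wholly. Among 4 classes by stage 10 pileup the difference was largest in the lowest, at 0.79 with and 0.58 without a late neighbour, and smallest in the highest, at 0.50 and 0.46. The median was higher with a late neighbour on 15 of 18 chromosomes. These values compare separate lists, and they rest on the ratio of the floors, 2.13, as an estimate of relative depth.

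The 1327 late neighbours whose early region was no longer listed differed from the rest in several measures. Their median distance was 1729 bp, against 992 bp where the early region was listed. They were wider, with a median of 408 bp against 306 bp, and had a median fold enrichment of 7.51 against 5.91 over backgrounds of 2.77 against 4.59 times the floor. The early regions beside them were weaker, with a median −log10 p of 25.7 at stage 10, against 41.9 for neighbours that were listed again. In pileup over the floor of its own list, the late region had a median of 22.8 times at stage 12. The early region it lay beside had 23.1 times at stage 10. The late one was the higher in 44.2% of pairs and the wider in 62.2%. On this scale listed early regions were themselves higher at stage 12, by medians of 0.59 with and 0.50 without a late neighbour (log2). Close multiples in separate lists thus need not mean equal strength. For 396 of the 1327 (29.8%) a different stage 10 region that was listed at stage 12 also lay within 5000 bp.

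The 5 of these with the highest −log10 p were chr3L:119503632-119504374, chr8L:88349346-88349685, chr1L:190124991-190125685, chr8L:116321114-116322286 and chr4L:140091650-140092425. They lay 4522, 2869, 4212, 3684 and 2171 bp from early regions that were not listed again, which were 109, 236, 197, 409 and 226 bp wide and had 1 summit each. Their pileups of 90.6 to 126 times the floor were all above the 75th percentile of late neighbours (37.4 times). The choice by −log10 p largely fixes this, since pileup was computed from −log10 p and fold enrichment.

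Among all late neighbours the highest −log10 p, 741, belonged to chr5S:132885957-132886800, a region of 844 bp with 5 summits and a fold enrichment of 14.2. It lay 3103 bp from chr5S:132889904-132890195, which was listed at stage 12 with a pileup of 158 times the floor, below the 208 times of the late neighbour. The next was chr3L:138563411-138564292, with a −log10 p of 534 over the highest local background of the 5, 20.6 times the floor. It was followed by chr2L:29300680-29301717, chr3L:119957853-119958651 and chr3L:119503632-119504374, whose fold enrichments were 12.3, 15.3 and 21.3. Of these 5 regions, 3 lay on chromosome 3L, which held 795 of all 8339 late neighbours, the most of any chromosome. A count from 5 regions says little about a chromosome.

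The strongest by distance were often different ones. Within 250 bp the 2 with the highest −log10 p were chr5S:84307641-84307973, 174 bp from an early region, and chr3L:13070244-13070840, 227 bp from one. The first had a fold enrichment of 22.9, against 15.3 for its partner, and the second 10.6, the same as its partner. From there to 500 bp they were chr3L:119957853-119958651, named above, and chr5L:143694960-143695762, whose fold of 13.6 stood beside one of 4.91. From 500 to 1000 bp they were chr1L:18359379-18360249 and chr3L:106877344-106877793, at 624 and 790 bp. From 1000 to 2000 bp and from 2000 to 5000 bp they were already among the 5 highest of all.

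The widest late neighbours were chr3S:117563818-117565844 (2027 bp), chr2L:29608509-29610473 (1965 bp) and chr3L:29475898-29477839 (1942 bp). The one on chromosome 2L had a fold enrichment of only 4.47 and lay 273 bp from an early region of 73 bp that was not listed again. Most summits were listed for chr5S:112631714-112633466 (10), chr8L:119995388-119996428 (9) and chr4S:96452862-96454098 (8). At the limit of the rule, the members just inside were chr3L:82252904-82253541 and chr6L:89270389-89270908, both at 5000 bp, and chr5S:1406018-1406446 at 4999 bp, with fold enrichments of 10.2, 5.78 and 7.19. Just outside were chr5L:17012907-17013521, the nearest, chr5S:61730571-61730755 at 5004 bp and chr1S:121817124-121817485 at 5006 bp, with 7.54, 9.82 and 7.96.

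Late neighbours were spread over all chromosomes. Xenopus laevis is an allotetraploid whose chromosomes form pairs of a long (L) and a short (S) homeologue. The number ran from 305 on chromosome 6S to 795 on chromosome 3L. As a share of the stage-12-only regions of the chromosome it ran from 30.2% (27.5% to 32.9%) on 4S to 38.0% (35.9% to 40.1%) on 3L, against 33.2% over all chromosomes. The interval lay above 33.2% on 3 chromosomes, 3L, 7S (37.4%) and 8L (37.0%), and below it on another 3, 4L (30.6%), 4S and 9_10L (30.5%). The L chromosomes held 60.8% of the late neighbours and 60.4% of all stage-12-only regions, and the share of late neighbours was higher on L in 5 of 9 pairs. The share whose early region was listed again ran from 77.8% on 7S to 85.9% on 4S. It was above the share of all stage 10 regions of the chromosome on 18 of 18. Chromosome 5S, at 78.6%, and 7S were the lowest.

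**Figure D5:**
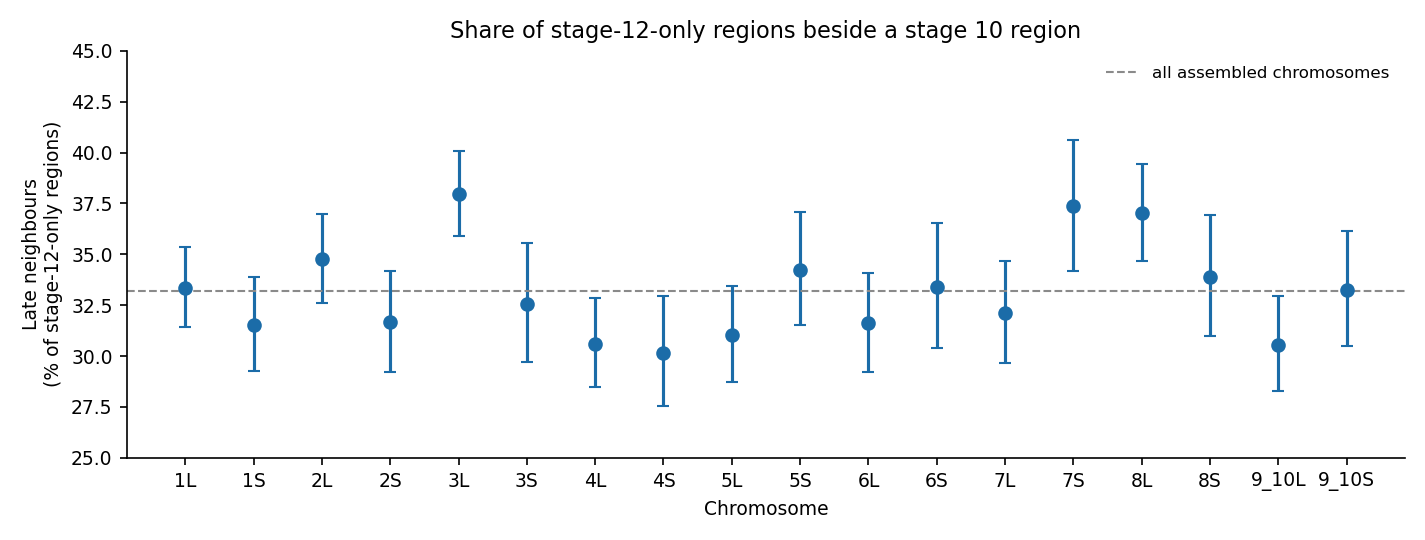
Late neighbours as a percentage of the stage-12-only regions of each of the 18 assembled chromosomes, with 95% Wilson intervals; the dashed line is the share over all chromosomes (33.2%). Chromosomes 3L (38.0%), 7S (37.4%) and 8L (37.0%) have intervals wholly above the line, and 4L (30.6%), 4S (30.2%) and 9_10L (30.5%) wholly below it.

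The reverse case existed at stage 10 in a larger proportion. Of the 8974 stage 10 regions that overlapped no stage 12 region, 4241 (47.3%) lay 1 to 5000 bp from one. These early regions had a median width of 267 bp, with 53.2% of them single-summit, and a median background of 4.24 times the stage 10 floor. Stage 10 regions that overlapped no stage 12 region and lay farther from one had 361 bp, 39.5% and 1.74 times. The same order of width, summits and background was thus seen at stage 10 among regions beside those of the other list and regions farther from them. The 2 proportions are not equivalent, since the stage 12 list held more regions to lie beside.

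How many late neighbours would have stood out at the depth of stage 10 was also computed. The pileups and backgrounds of stage 12 were divided by the ratio of the floors and −log10 p was computed again. By this measure 6200 late neighbours (74.3%) reached the 5th percentile of −log10 p in the stage 10 list (19.6), as did 73.9% of the other stage-12-only regions and 95.5% of those overlapping stage 10. The median of the stage 10 list (39.6) was reached by 22.3% of late neighbours, 24.2% of the other stage-12-only regions and 75.9% of those overlapping stage 10. The scaling rests on the floors, and with 1 list per stage, stage and depth cannot be told apart for any late neighbour.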

How the data were processed

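The data were 2 lists of accessible regions, 1 per stage, each shared by the 3 libraries of that stage. The submitters' processing notes name the genome build xenLae2 and bcl2fastq 2.20. The aligner, peak caller, read shift for the Tn5 cut and replicate handling are not given in the sources used here. By column order, the authors deposited for each summit a region score (540 to 1000), a fold enrichment, which is a ratio to local background, a −log10 p and a −log10 q (not used), and the summit offset in bases.

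Summits that shared an interval counted as 1 region, which took the values of its summit with the highest −log10 p. Distance is the number of bases between edges, and overlap means at least 1 bp. Both pileup and background came from solving the fold and −log10 p of each summit as a Poisson tail, with a misfit under 0.01 for 99.95% of stage 10 and 99.93% of stage 12 summits, and the closest solution was used for the rest. The floor is the most common background of a list. Shares have 95% Wilson intervals, medians order-statistic intervals. Python 3.11.15, NumPy 2.4.6, pandas 2.3.3 and SciPy 1.17.1 were used, and distances were checked against bedtools 2.31.1 on simulated intervals. No tests were run, because each stage is 1 list.

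Named regions are the members with the highest −log10 p among all, per distance bin and among those with a neighbour not listed again, the widest, those with most summits, those around the 3 early regions with most members, and those at the limit. The members, sets and alternatives were chosen with earlier results of these data known. The steps of 500 bp and the classes of background were chosen after values were seen. Alternatives changed the overlap, distance, thresholds, joining and sequences included. Coordinates are 1-based.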

Additional observations from a re-analysis of the deposited data

Results flagged for a closer look

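Stage 12 regions on unplaced scaffolds were outside the account above and also met the distance rule. There were 587 of them on 121 scaffolds, which is 24.5% of the 2399 stage-12-only regions on such scaffolds (95% Wilson interval 22.8% to 26.2%). That share is below the 33.2% on chromosomes. Any region on a scaffold with no stage 10 region counts among the 2399, and a scaffold end can cut off a neighbour. The part of this in the lower share was not tested. Apart from the alternative that includes unplaced scaffolds, the comparisons did not use these regions. Their median distance was 998 bp and their median width 317 bp, and the nearest stage 10 region was listed at stage 12 for 84.7%. The share listed over all stage 10 regions of these scaffolds was not computed.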

How the results depend on the processing

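No paired analysis was possible because neither list keeps its 3 libraries apart, and for the same reason no replicate could be left out. Of 60 values under other settings, 20 stayed within the interval of the reported value (counts within 1.5 times) and 40 moved. The cause was not tested, except where the setting itself changes what is counted. With a limit of 2000 bp there were 5491 late neighbours, 21.9% of stage-12-only regions, with a median distance of 520 bp, a median width of 290 bp, 48.1% with 1 summit and 87.0% with a listed early region. With a limit of 10000 bp the share was 47.8%, the distance 2427 bp, the width 361 bp and the 1-summit share 37.0%. With an overlap of 50% of both regions required, these were 41.9%, 396 bp, 394 bp and 34.7%, and 53.2% of members had a listed early region. Its 12065 members include regions that overlap an early region by less than 50%, which lowers the distance and the listed share by the setting itself. With distance between best summits they were 31.3%, 1444 bp, 311 bp and 43.0%.

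Among stage 12 regions at the top score there were 4544, with a distance of 1257 bp, a width of 376 bp, 30.9% with 1 summit and 78.0% with a listed early region. In the upper 50% of the stage 12 list by −log10 p there were 1669, 31.3% of stage-12-only regions, with 1497 bp, 463 bp, 15.6% and 66.0% for the same measures. These settings and the 50% overlap also ask more of a region before it counts as listed. Against the upper 50% of the stage 10 list the share of stage-12-only regions was 21.9% and the distance 1176 bp. The 1-summit share was 40.7% and the listed share 93.6%. In this setting a stage 12 region that overlaps only a weaker early region also counts as stage-12-only and can be a member. The 21.9% thus cannot be set against the share reported above. That listed share lies among those of all strong early regions. In the classes by −log10 p that make up the upper 50% of early regions on chromosomes, 83.7% to 98.4% were listed. With regions within 100 bp joined the distance was 1167 bp, and with unplaced scaffolds the share was 32.5%. Among regions past the 5th percentile of stage 10 at stage 10 depth, a setting added after the data were seen, the distance was 1178 bp, the width 345 bp, the 1-summit share 36.0% and the listed share 81.1%. The share of all stage 10 regions that were listed was not computed again under these settings.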
